A study of Mus musculus with 3 samples.

Results

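The globin genes and the gene of their chaperone Ahsp were followed in bone marrow (BM) cells of mice treated with LECT2 for 0, 3 or 5 days. Members were the gene rows whose symbol starts with Hba- or Hbb-, or that stand for Ahsp. Of 17559 rows in the deposited tables, 7 matched by symbol. A further 2 were taken by gene ID and annotation, because they carry the same genes under other labels. The row Beta-s has the gene ID that RefSeq gives to Hbb-bs, an adult beta globin gene. The Ahsp row has no symbol, and its deposited protein annotation reads alpha-hemoglobin-stabilizing protein. The 9 members were thus 2 adult alpha rows (Hba-a1 and Hba-a2), 3 adult beta rows (Beta-s, Hbb-b1 and Hbb-b2), 3 embryonic rows (Hba-x, Hbb-y and Hbb-bh1) and Ahsp. The 7 rows matched by symbol held 39.1% of the reads of all members at 0 days, 34.7% at 3 days and 31.9% at 5 days, so most of the globin reads stood in the 2 rows added by gene ID and annotation.

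LECT2 (leukocyte cell-derived chemotaxin 2) is a secreted protein that is made mainly by the liver. Male C57BL/6 mice of 6 to 8 weeks received recombinant LECT2 made in CHO cells, a hamster line, at 300 μg per kg subcutaneously once a day for 3 or 5 days, and were killed 4 h after the last injection. The label of the 0-day sample gives no injection, and whether these mice received vehicle is not given in the sources used here. Marrow was flushed from leg, arm and pelvic bones, and 1 RNA-seq library was analysed per time point. The number of mice behind each library and any lysis of red cells are not given in the sources used here, and the methods speak of flushed BM cells whereas a supplementary legend speaks of mononuclear cells.

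Haemoglobin is a tetramer of alpha-type and beta-type globin chains, each of which holds a haem group that binds oxygen. The alpha-type genes lie in a cluster on mouse chromosome 11 and the beta-type genes in a cluster on chromosome 7, and in each cluster embryonic genes precede the adult genes. Erythroblasts in the marrow transcribe the adult genes at very high levels while they fill with haemoglobin. Ahsp binds free alpha chains and keeps them soluble until they pair with beta chains.

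The copies of the adult genes are nearly the same in sequence, which bears on how their reads can be read. In the reference transcripts of GENCODE M21 (GRCm38), the coding sequences of Hba-a1 and Hba-a2 differed at 1 of 429 bases, and those of Hbb-bs and Hbb-bt at 1 of 444 bases. Counting from the A of the start codon, with the base of the first-named gene first, the differences were C381T in the alpha pair and C417T in the beta pair. Both left the protein the same. The stretches around these bases are shown because nothing else in the coding sequence separates the copies, with the differing base in capitals (bases 351 to 411 of the alpha pair, and bases 387 to 444 of the beta pair).
Hba-a1: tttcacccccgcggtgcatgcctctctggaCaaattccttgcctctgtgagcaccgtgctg
Hba-a2: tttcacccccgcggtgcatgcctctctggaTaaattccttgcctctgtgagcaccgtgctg
Hbb-bs: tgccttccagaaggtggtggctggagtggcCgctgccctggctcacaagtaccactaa
Hbb-bt: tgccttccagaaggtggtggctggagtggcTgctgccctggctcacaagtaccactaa
The coding sequences were thus shared without a break over the first 380 bases of the alpha pair and the first 416 bases of the beta pair. How reads that match several copies were counted is not given in the sources used here. The division of reads between Hba-a1 and Hba-a2, and between Beta-s and Hbb-b1, is therefore uncertain. The sums of each group do not depend on this division, but they may still depend on how reads that match several copies were counted. The deposited annotation gives the rows Beta-s and Hbb-b1 the same protein, hemoglobin subunit beta-1, which RefSeq assigns to Hbb-bt. Hbb-bt was not analysed here as a row of its own. Hbb-b1 and Hbb-b2 are names of the beta genes of another mouse haplotype.

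The stretches upstream of the adult genes also share features. The 250 bases before the start of Hba-a1 and of Hbb-bs are printed for the most abundant row of each adult group, from the RefSeq promoter table of GRCm38.p6. Capitals mark matches on either strand to 4 short motifs that were picked after these sequences had been seen, namely the box CCAAT and the box CACCC, with GATAA as the core of the site bound by GATA factors and ATATAA as a TATA box. No motif match overlaps another in the stretches printed.
Hba-a1, chr11:32283422-32283671, plus strand: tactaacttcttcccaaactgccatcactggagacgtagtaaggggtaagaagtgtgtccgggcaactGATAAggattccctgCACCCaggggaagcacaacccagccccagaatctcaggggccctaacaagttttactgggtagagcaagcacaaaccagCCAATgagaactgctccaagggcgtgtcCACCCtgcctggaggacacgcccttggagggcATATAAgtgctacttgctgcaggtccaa
Hbb-bs, chr7:103827929-103828178, minus strand: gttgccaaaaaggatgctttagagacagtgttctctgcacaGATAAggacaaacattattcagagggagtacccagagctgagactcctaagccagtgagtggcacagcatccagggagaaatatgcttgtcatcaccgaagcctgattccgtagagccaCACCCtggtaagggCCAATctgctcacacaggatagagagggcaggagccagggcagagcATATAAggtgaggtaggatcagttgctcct
All 4 motifs were found upstream of Hba-a1, Hba-a2, Hbb-bs and Hbb-bt. The ATATAA match began 28 bases before the start of Hba-a1 and 30 bases before that of Hbb-bs, and the CCAAT match 88 and 76 bases before. Among 32851 mouse promoters of the same length, 33.8% held CCAAT, 52.0% CACCC, 22.6% GATAA and 9.10% ATATAA, and 0.466% held all 4. The 250 bases upstream of Hba-a2 are found unbroken in the sequence of Hba-a1, 3 bases further along. Of the embryonic genes, Hba-x had 3 of the motifs, without CCAAT, and Hbb-y had 3, without ATATAA. These matches describe the letters of the sequence and do not show that a factor was bound. The genes themselves lie at chr11:32276600-32278116 (Hba-x), chr11:32283672-32284486 (Hba-a1), chr11:32296492-32297310 (Hba-a2), chr7:103826523-103827928 (Hbb-bs), chr7:103841638-103843162 (Hbb-bh1) and chr7:103851754-103853207 (Hbb-y) in GRCm38.p6, whereas the submitters' processing notes name the build mm8.

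The libraries held 15146983 to 15523952 reads on genes. The values below are RPKM (read counts scaled by gene length and library total) as deposited, and a change is the log2 ratio of (RPKM + 0.1) between libraries. With 1 library per time point no change has a replicate check, and each 95% interval, exact by the Clopper-Pearson method, describes the counting error of the reads and nothing else. Gene length moved with the time points. The median change of the 11144 genes whose mean reached 1 RPKM was 0.10 from 0 to 3 days and 0.31 from 0 to 5 days. For the 443 of them with a length of at most 700 bases, the range in which all members lie, it was -0.55 and -0.63. Between 3 and 5 days the short genes did not stand below 0, with a median of 0.02 against 0.25 for all genes. The changes of the adult rows and of Ahsp are therefore also given relative to genes of like length, after the running trend on length was removed, and those of named genes of the erythroid and clearance lists where the direction differs. The 7 defining markers of erythroid cells were detected in each library, with a summed level of 486, 630 and 471 RPKM at 0, 3 and 5 days. Their median change from 0 to 5 days was 0.07 (-0.09 relative to genes of like length).

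Adult globin transcripts were among the most abundant in the marrow at 0 days and were much scarcer in the 5-day library. The 5 adult rows together held 0.759%, 0.647% and 0.246% of all reads at 0, 3 and 5 days. Relative to 0 days their summed level was 84.9% at 3 days and 32.2% at 5 days. In a bulk sample, fewer erythroid cells and less globin RNA per cell cannot be told apart.

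**Figure D1:**
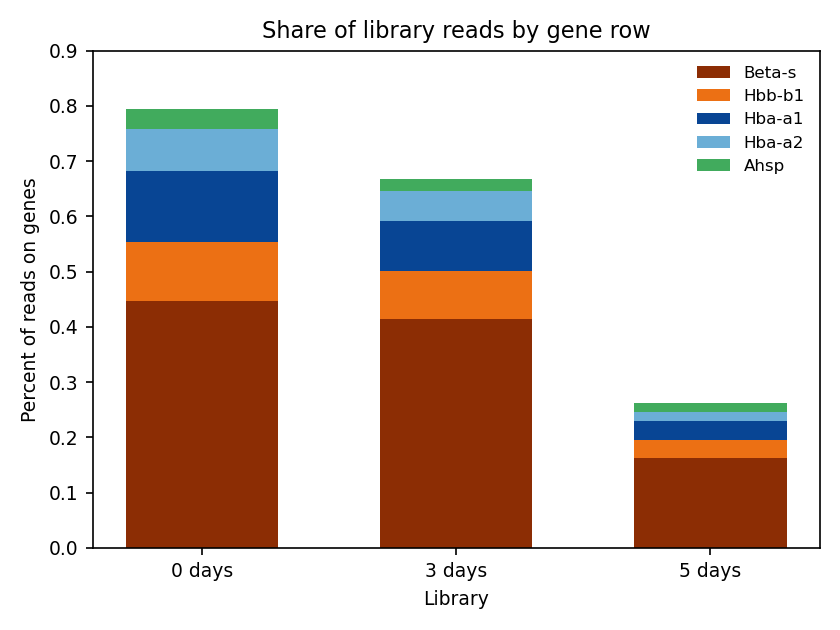
Stacked bars give the percent of library reads on genes held by Beta-s, Hbb-b1, Hba-a1, Hba-a2 and Ahsp in the libraries of 0, 3 and 5 days, and Hbb-b2 and the embryonic rows are too low to draw. The height, which is 0.796%, 0.669% and 0.262% with all 9 members, was slightly lower at 3 days and much lower at 5 days.

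Of the beta rows, Beta-s was the most abundant. Its reads numbered 69433 (0 days), 62824 (3 days) and 25185 (5 days), which correspond to 6999, 6491 and 2540.4 RPKM. By RPKM it was the gene ranked 7, 6 and 10 in the whole marrow, so it stayed among the leading transcripts while its level was lower. At 3 days Beta-s stood at 92.7% of the 0-day level (log2 -0.11, 95% interval -0.12 to -0.09). At 5 days it stood at 36.3% (log2 -1.46, -1.48 to -1.44). Hbb-b1, which also codes for an adult beta chain, was lower than Beta-s in each library, with 16484, 13150 and 5118 reads or 1696, 1387 and 527 RPKM. Its rank passed from 39 to 27 and then to 115. Hbb-b1 was at 81.8% of the 0-day level at 3 days (log2 -0.29, -0.32 to -0.26) and at 31.1% at 5 days (log2 -1.69, -1.73 to -1.64). Both rows therefore showed the same order of the 3 libraries, with a small step to 3 days and a large step to 5 days. Hbb-b2, the minor adult beta gene of the other haplotype, had 58, 45 and 13 reads, or 5.91, 4.70 and 1.33 RPKM. These few reads gave a log2 ratio of -0.32 at 3 days, with an interval of -0.93 to 0.26 that includes no change. At 5 days the ratio was -2.08 (-3.15 to -1.27). Beta-s held 80.8%, 82.6% and 83.1% of the adult beta reads at 0, 3 and 5 days, and Hbb-b2 at most 0.0675%.

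Summed over the 3 rows, adult beta globin had 8702, 7882 and 3069 RPKM. Against 0 days its log2 ratio was -0.14 (-0.16 to -0.13) after 3 days and -1.50 (-1.52 to -1.48) after 5 days. Between 3 and 5 days it was -1.36 (-1.38 to -1.34), so that the larger part of the difference lay between these libraries. Relative to genes of like length the value at 3 days turned to 0.40, and that at 5 days was -0.99. The value between 3 and 5 days was -1.44 relative to genes of like length. By row, the 3-day values on this scale were 0.43 for Beta-s, 0.25 for Hbb-b1 and 0.22 for Hbb-b2, and the 5-day values were -0.95, -1.16 and -1.56.

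Both alpha rows were lower at 3 days and again at 5 days. Hba-a1 had 19899, 13708 and 5260 reads, or 2253, 1591 and 596 RPKM. Hba-a2, the neighbouring copy, had 11887, 8266 and 2562 reads, or 1304, 929.7 and 281 RPKM. Their ranks by RPKM were 19 and 60 at 0 days, 20 and 57 at 3 days, and 95 and 205 at 5 days. At 3 days Hba-a1 was at 70.6% (log2 -0.50, -0.53 to -0.47) and Hba-a2 at 71.3% (log2 -0.49, -0.53 to -0.45) of the 0-day level, with overlapping intervals. At 5 days Hba-a1 was at 26.4% (log2 -1.92, -1.96 to -1.87) and Hba-a2 at 21.6% (log2 -2.21, -2.28 to -2.15), and these intervals did not overlap. The ratio of Hba-a1 to Hba-a2 was 1.73 (1.69 to 1.77), 1.71 (1.66 to 1.76) and 2.12 (2.02 to 2.22) at 0, 3 and 5 days. Since the division of reads between these copies is uncertain, this shift is given as a value of the rows and not of the genes.

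Summed over both rows, adult alpha globin had 3557, 2520.2 and 877 RPKM. Against 0 days its log2 ratio was -0.50 (-0.52 to -0.47) after 3 days and -2.02 (-2.06 to -1.99) after 5 days, and between 3 and 5 days it was -1.52 (-1.56 to -1.49). Relative to genes of like length these values were 0.08, -1.45 and -1.58, and the 5-day values of the rows were -1.34 for Hba-a1 and -1.65 for Hba-a2. The lower level at 3 days was thus not seen relative to short genes, for alpha as for beta globin, whereas the lower level at 5 days was. The 0.31 by which all genes were higher at 5 days is not taken out of the first values, and with TMM scaling, which takes it out, the 5-day values were -2.33 for alpha and -1.81 for beta globin.

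**Figure D2:**
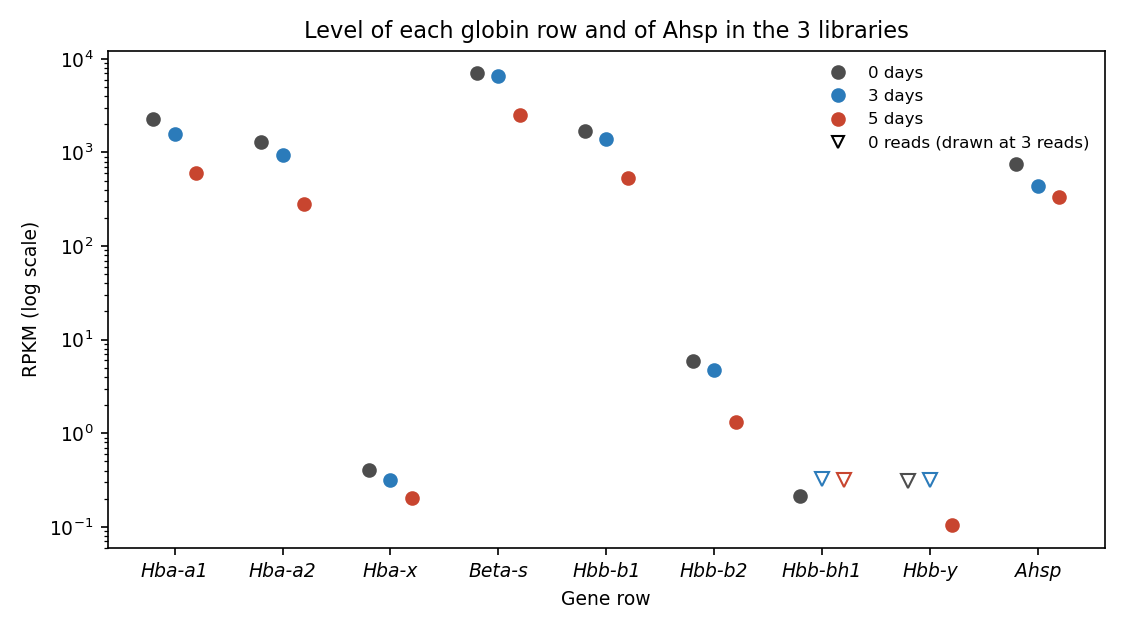
Points give the RPKM, on a log axis, of each of the 9 rows in the 0-day, 3-day and 5-day library, and open triangles mark 0 reads, drawn at the level of 3 reads. The abundant rows Hba-a1, Hba-a2, Beta-s, Hbb-b1 and Ahsp are highest at 0 days and lowest at 5 days, and the embryonic rows lie at or below 0.409 RPKM.

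Alpha and beta globin did not keep pace with each other. The ratio of adult alpha to adult beta RPKM within a library was 0.409 (0.404 to 0.414) at 0 days, 0.320 (0.315 to 0.325) at 3 days and 0.286 (0.279 to 0.293) at 5 days. None of these intervals overlapped. A ratio within a library does not depend on the scaling of the library. The alpha change was lower than the beta change by 0.35 on the log2 scale at 3 days and by 0.52 at 5 days. With the trends on length and on GC content both removed, the differences were 0.34 and 0.48, so they were about as large among genes of like length and base composition. The absolute ratio is less certain than its course, because the reads of near-identical copies may have been counted differently in the alpha and the beta group. With the 2 beta rows matched by symbol alone, it was 2.09, 1.81 and 1.66, which again is lower at each time point. The ratio of Hba-a1 to Beta-s was 0.322, 0.245 and 0.235, and the ratio of Beta-s to Hbb-b1 was 4.13, 4.68 and 4.82.

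Ahsp, the alpha chain chaperone, was lower in both treated libraries, with a time course that differed from that of the globins. It had 5732, 3306 and 2535 reads, or 747, 442 and 331 RPKM, and it ranked 118, 148 and 177. By 3 days Ahsp stood at 59.1% of the 0-day value (log2 -0.76, -0.82 to -0.70), and by 5 days at 44.3% (log2 -1.18, -1.24 to -1.11). Between 3 and 5 days the log2 ratio was -0.42 (-0.49 to -0.34). On the deposited scale Ahsp had thus covered 64.5% of its 5-day log2 change by 3 days. The shares were 24.6% for adult alpha and 9.49% for adult beta globin. Relative to genes of like length, the Ahsp values were -0.14 at 3 days, -0.51 at 5 days and -0.44 between them. The larger part of the Ahsp change then also lay between 3 and 5 days. Adult alpha (0.08) and beta globin (0.40) were not below 0 at 3 days on that scale, so the shares above do not hold there. The Ahsp row is the shortest of the members, at 494 bases.

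The ratio of Ahsp to its partner chain therefore moved in opposite directions over the 2 steps. Ahsp stood at 0.210 (0.204 to 0.216) of the adult alpha RPKM at 0 days, 0.175 (0.169 to 0.182) at 3 days and 0.377 (0.360 to 0.394) at 5 days. The intervals did not overlap. At 3 days the Ahsp change was lower than the alpha change by 0.26 on the log2 scale (0.21 among genes of like length). At 5 days the Ahsp log2 ratio exceeded that of alpha globin by 0.84 (0.93 among genes of like length). Relative to adult beta globin the ratio was 0.0859, 0.0561 and 0.108.

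**Figure D3:**
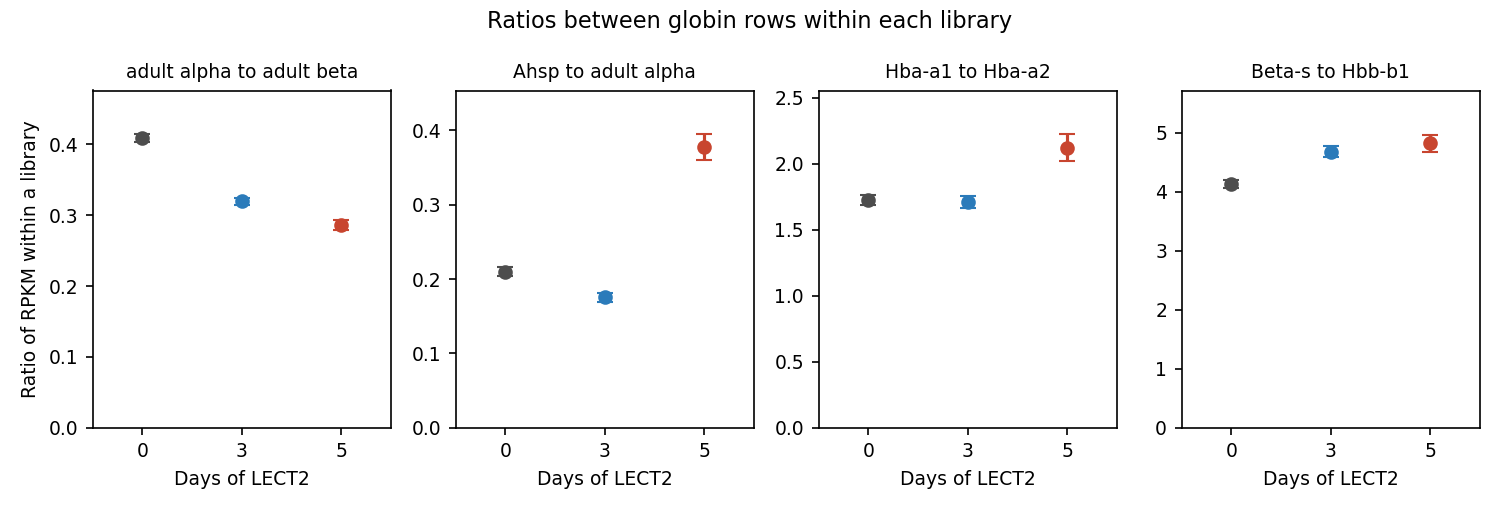
Points give 4 ratios of RPKM within each library at 0, 3 and 5 days, with 95% exact intervals of the read counts as bars. The alpha to beta ratio is lower at each time point (0.409, 0.320, 0.286), the Ahsp to alpha ratio is highest at 5 days (0.377), the Hba-a1 to Hba-a2 ratio is highest at 5 days (2.12), and the Beta-s to Hbb-b1 ratio is lowest at 0 days (4.13).

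The embryonic globins were at the limit of detection. Hba-x, the alpha-type gene of the embryonic yolk sac, had 4, 3 and 2 reads at 0, 3 and 5 days, or 0.409, 0.314 and 0.205 RPKM. Hbb-bh1, an embryonic beta-type gene, had 2 reads at 0 days and 0 reads at 3 and 5 days, which allows a level of up to 0.325 and 0.317 RPKM (3 reads). Hbb-y, the other embryonic beta-type gene, had 0 reads at 0 and 3 days, which allows up to 0.312 and 0.320 RPKM, and 1 read at 5 days. No change of an embryonic globin was detectable at this depth. In the same 0-day library the adult alpha rows had 31786 reads.

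Of the 9 members, 6 had at least 1 RPKM in either library of a comparison, namely the 5 adult rows and Ahsp. At 3 days none of the 6 was at least 2-fold lower than at 0 days and none was 2-fold higher. Of 11325 genes, 2.41% were at least 2-fold lower and 4.08% at least 2-fold higher, and among those of at most 700 bases 18.0% were at least 2-fold lower. With the trend on length removed there were again 0 members on either side, against 1.81% of genes lower and 2.59% higher. At 5 days all 6 were at least 2-fold lower than at 0 days, and 0 were 2-fold higher. The background was 5.91% lower and 15.5% higher among 11497 genes, but 30.2% lower among the 490 genes of at most 700 bases. After the trend on length was removed, 4 of the 6 were at least 2-fold lower, against 7.61% of genes lower and 5.05% higher in the same fit, and Beta-s (-0.95) and Ahsp (-0.51) no longer were. Between 3 and 5 days 5 of the 6, without Ahsp, were at least 2-fold lower, against 3.45% of 11375 genes and 13.1% of the genes of at most 700 bases, and 5 were so after the trend on length was removed, against 4.93% of genes. No member was 2-fold higher, against 1.95% of genes (0.659% with the trend removed). The 6 rows belong to few genes and share sequence, and are not independent observations.

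**Figure D4:**
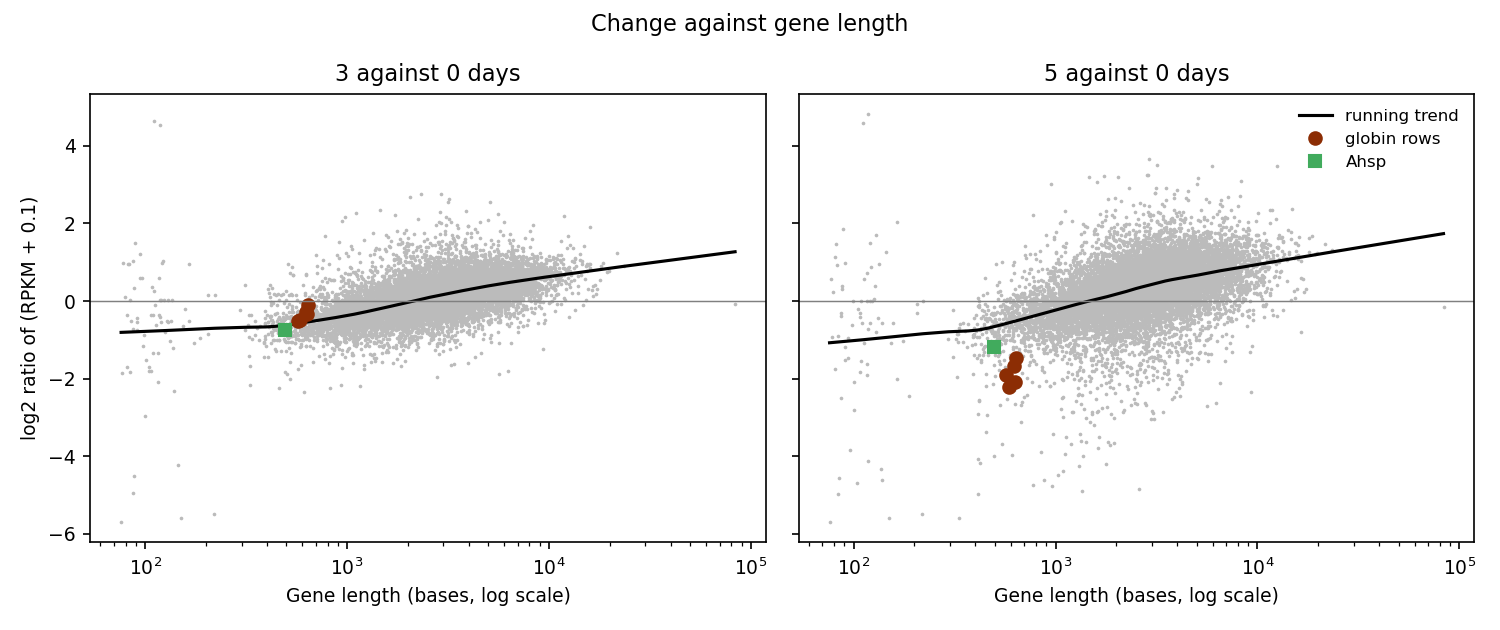
Each grey point is a gene whose mean reached 1 RPKM, with gene length on a log axis against the log2 ratio of (RPKM + 0.1), at 3 against 0 days on the left and at 5 against 0 days on the right, and the line is the running trend. Brown points are the adult globin rows, and the green square is Ahsp. Relative to the trend, the globin rows lie at 0.08 (Hba-a1 and Hba-a2) to 0.43 (Beta-s) and Ahsp at -0.14 at 3 days. At 5 days all lie below the trend, the globin rows at -0.95 (Beta-s) to -1.65 (Hba-a2) and Ahsp at -0.51.

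Few other erythroid genes were as much lower as the globins. Over 5 lists with 65 genes (haem synthesis, erythroid transcription factors, red cell membrane, late erythroid enzymes and early erythroid genes), 1 gene was at least 2-fold lower at 5 days than at 0 days and 2 were at least 2-fold higher, beside 5.91% and 15.5% of all genes. Their median log2 ratio was 0.12, beside 0.31 over all genes. The lowest of the 65 was -1.19, and none of them was as low as summed adult beta globin on this scale. With TMM scaling 4 were 2-fold lower and 1 higher, and 44 of the 65 stood below 0. Their median was then -0.19, beside 0.01 over all genes. Shares of all genes changed 2-fold were not computed for TMM scaling. Among genes of like length these numbers were 2 lower, 0 higher and 43 below 0, beside 7.61% of genes lower and 5.05% higher. The balance of these counts thus depends on the scaling. The gene that was lower was Bpgm (log2 -1.19), whose enzyme makes the 2,3-bisphosphoglycerate that tunes oxygen release, and those that were higher were Ank1 (1.16) and Spnb1 (1.45), which code for ankyrin and beta spectrin of the membrane skeleton. These 3, and the genes counted at the other steps, were named after their values were seen. Relative to genes of like length Ank1 was at 0.29 and Spnb1 at 0.49, and 0 of the 65 were 2-fold higher. At 3 days 0 genes were 2-fold lower and 3 were higher, namely Epb4.1 (1.30), Spnb1 (1.13) and Ube2o (1.07), with a median of 0.06 beside 0.10 over all genes. The share of all genes that were 2-fold higher was 4.08%, and with the length trend removed 0 of the 65 were. Between 3 and 5 days 2 of the 65 were 2-fold lower, namely Bpgm (-1.76) and Alas2 (-1.19), beside 3.45% of all genes. With TMM scaling 4 were, and with the length trend removed 5 were, the latter beside 4.93% of genes. Bpgm was there below both summed alpha globin (-1.52) and summed beta globin (-1.36).

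In haem synthesis 0 of 11 genes were 2-fold changed at 5 days, with a median of -0.16 (-0.47 with TMM scaling and -0.30 among genes of like length), beside 5.91% of all genes lower and 15.5% higher, and with TMM scaling 1 of the 11, Alas2, was 2-fold lower. Alas2, the erythroid enzyme of the first step, had 175, 244 and 107 RPKM, so it was highest at 3 days (log2 0.48) and lowest at 5 days (log2 -0.71). Slc25a37, which carries iron into mitochondria, had log2 ratios of 0.19 and 0.02 (-0.13 and -0.57 among genes of like length). Among 14 transcription factors, 0 were 2-fold changed, beside the same shares of all genes, and the median at 5 days was 0.35 (0.04 with TMM scaling and 0.04 with the length trend removed). Gata1 and Klf1, which activate globin genes, had 5-day log2 ratios of -0.03 and 0.07, and Bcl11a, which silences embryonic-type globin genes, of 0.28 (-0.47 among genes of like length). The most abundant factors of the list were Nfe2 (-0.19), Myb (0.63, or 0.08 among genes of like length) and E2f2 (0.58, or -0.06). None of these 6 factor transcripts was as low at 5 days as the adult globins or Ahsp. These are values of bulk marrow, in which other cells may also contribute reads to genes of the erythroid lists.

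Of 16 genes of the red cell membrane, 2 were 2-fold higher and none 2-fold lower at 5 days, beside 15.5% and 5.91% of all genes, and 0 were higher with the length trend removed. Slc4a1, the anion exchanger band 3, had 109, 183 and 174 RPKM (log2 0.74 and 0.67, or 0.39 and 0.04 among genes of like length). Aqp1, a water channel, had log2 ratios of 0.01 and 0.55 (-0.12 and 0.17 among genes of like length). Among 17 late erythroid enzymes and maturation genes 1 was 2-fold lower at 5 days, beside 5.91% of all genes, and the median was -0.21. With TMM scaling 3 were lower and the median was -0.52. Among genes of like length 2 were lower, beside 7.61% of genes, with a median of -0.54. Between 3 and 5 days 1 of the 17 was 2-fold lower (median -0.29), beside 3.45% of all genes. With TMM scaling 3 were lower (median -0.51), and among genes of like length 4 (median -0.63), the latter beside 4.93% of genes. Prdx2, which removes peroxide in red cells, had 395, 236 and 226 RPKM (log2 -0.75 and -0.81). Car2, which codes for carbonic anhydrase, had log2 ratios of -0.22 and -0.43, Sod1 of -0.44 and -0.14, and Eif2ak1, the kinase that slows globin translation when haem is scarce, of 0.15 and 0.14. Among genes of like length the 5-day values of Sod1 and Eif2ak1 were 0.35 and -0.25, and the 3-day value of Sod1 was 0.08. Of 8 early erythroid genes none was 2-fold changed, with 5-day log2 ratios of 0.12 for the transferrin receptor gene Tfrc, -0.20 for Gata2 and 0.39 for Ermap. Among genes of like length those of Tfrc and Ermap were -0.53 and -0.24.

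Erythroid genes with gene models of at most 1000 bases came nearer to the members in length. There were 5 of them, selected by this limit after the data had been seen, and their log2 ratios at 5 days were -0.99 for Tspo2, -0.81 for Prdx2, -0.59 for Blvrb, -0.14 for Sod1 and -0.06 for Icam4 (0.23 among genes of like length). All 5 lay above the value of summed adult beta globin. The erythroid lists are of mostly longer genes, and relative to genes of like length the median of the 65 at 5 days was -0.24, with 2 below summed beta globin (-0.99) and none below summed alpha globin (-1.45).

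Of the other globins, Hbq1b, a theta globin gene of the alpha cluster, had 112, 71 and 45 reads. Its log2 ratio was -0.61 (-1.07 to -0.18) after 3 days and -1.29 (-1.85 to -0.80) after 5 days, which places it below 0 in both libraries, as the adult globins were. Relative to genes of like length the values of Hbq1b were -0.13 and -0.88. Its copy Hbq1a had 6, 8 and 2 reads, with a log2 ratio of 0.40 at 3 days whose interval of -1.27 to 2.26 includes no change. Myoglobin (Mb) had 5, 0 and 0 reads. Of 6 measured genes that clear haemoglobin and haem, 2 were at least 2-fold higher at 5 days, beside 15.5% of all genes, and 1 was with the length trend removed. Lrp1, which codes for the receptor that takes up haemopexin with its haem and was named after its value was seen, had log2 ratios of 1.41 and 2.38. Hp, which codes for the haemoglobin scavenger haptoglobin, had log2 ratios of -0.06 (0.17 among genes of like length) and -0.59, and Cd163, the receptor that takes up its complex with haemoglobin, of 0.61 and 1.14. Hmox1, which codes for haem oxygenase, had 0.17 and 0.29, the iron exporter gene Slc40a1 0.49 and -0.06, and Hpx had 0, 4 and 2 reads.

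**Figure D5:**
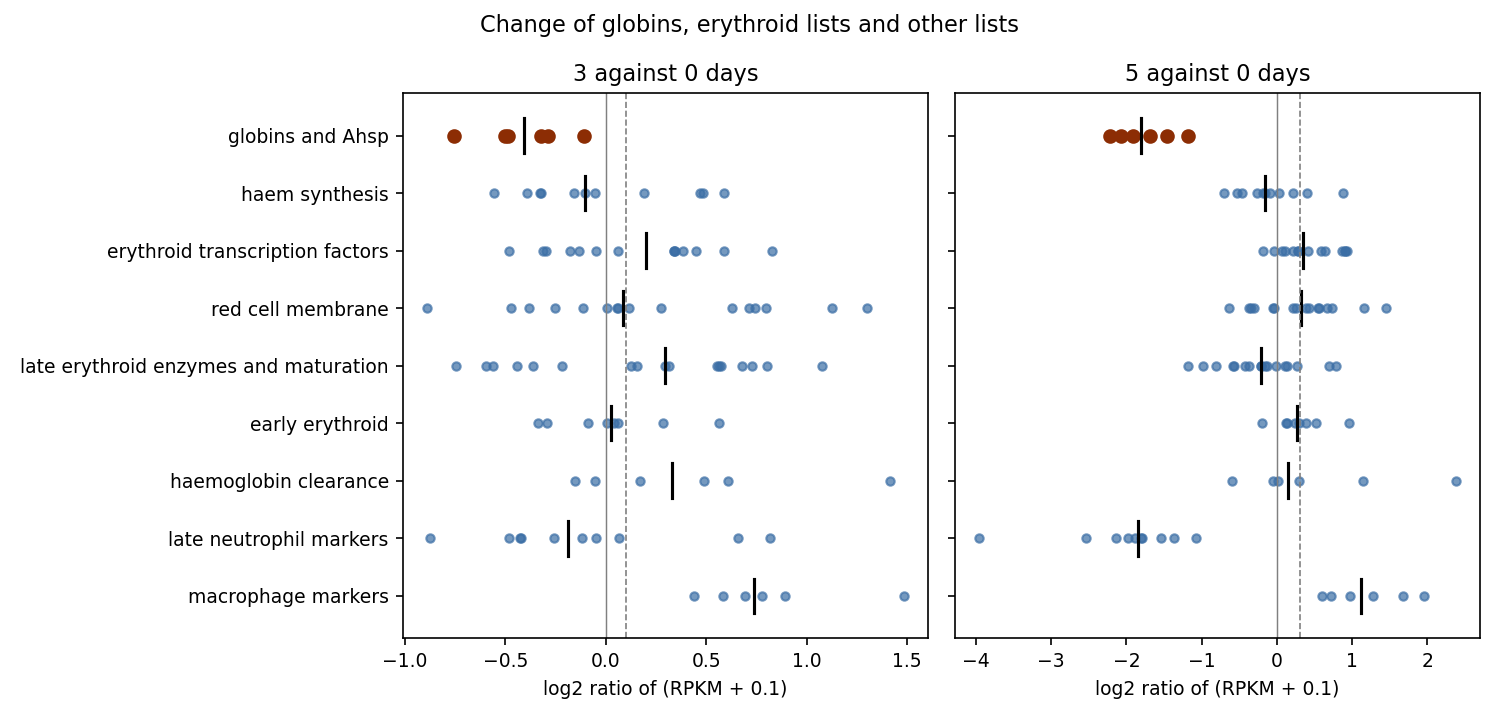
Each point is a gene, placed by its log2 ratio of (RPKM + 0.1) at 3 against 0 days (left) and at 5 against 0 days (right), black bars are list medians, and the solid and dashed lines mark 0 and the median of all genes. At 5 days the globins and Ahsp (-1.18 to -2.21) lie below nearly all genes of the 5 erythroid lists (median 0.12) and in the range of the late neutrophil markers (median -1.84).

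Marker lists of other cell types also differed between these libraries, in differing directions. All 10 late neutrophil markers were at least 2-fold lower at 5 days, beside 5.91% of all genes, with a summed level of 149807, 115886 and 41359 RPKM and a median change of -0.19 from 0 to 3 days and -1.84 from 0 to 5 days (0.14 and -1.61 among genes of like length). S100a9, the most abundant of them, had 61729, 44195 and 14032 RPKM. Of the 6 macrophage markers 3 were at least 2-fold higher at 5 days, beside 15.5% of all genes, with a summed level of 131, 211 and 303 RPKM. Of the 6 B cell markers 0 were 2-fold changed at 5 days (median -0.36). Of the 6 platelet and megakaryocyte markers 2 were 2-fold lower at 3 days (median -0.67), beside 2.41% of all genes, 0 were 2-fold changed at 5 against 0 days (median 0.00), and 2 were 2-fold higher at 5 against 3 days (median 0.74), beside 1.95% of all genes. Median changes over the 5 T and NK cell markers were -0.98 at 3 days and -0.68 at 5 days. Of these 5, 2 were 2-fold lower at 3 days and 1 at 5 days, beside 2.41% and 5.91% of all genes. None of the 5 had more than 289 reads in a library. Of 4 promyelocyte markers 1 was 2-fold higher at 5 days (median 0.56), beside 15.5% of all genes. The part of these marker differences in the globin values was not tested.

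Over the 3 libraries, the 8 genes whose pair of log2 ratios (3 against 0 days and 5 against 0 days) lay nearest to that of summed adult beta globin included Slc27a4, Fcgr4, Gadd45g, Acpp, S100a11, Isg15 and St3gal5, among 8187 genes whose mean reached 5 RPKM. The distances of the 8 were 0.08 to 0.12 on the log2 scale. Slc27a4 had 54.9, 51.7 and 18.6 RPKM, and S100a11 2179, 1961 and 836. Summed adult alpha globin lay at a distance of 0.63, with 201 genes nearer, and Ahsp at 0.70, with 256 nearer. Likeness over 3 libraries that share the 0-day library is a description of these values.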

How the data were processed

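Libraries of RNA from flushed mouse BM cells, 1 per time point, were prepared with the TruSeq RNA kit, and an Illumina HiSeq was used for sequencing. The authors deposited 3 tables of pairwise comparisons that hold whole read counts per gene, the deposited RPKM made from these counts and the gene length. For the 9 members the RPKM equalled the counts scaled by length and library total within 0.1%. The methods name Cufflinks and the submitters' notes the build mm8, and the aligner is not given in the sources used here. The authors' own log2 ratios, P values and false discovery rates were left aside. No column was left unmapped.

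Genes without reads were set to 0 RPKM, and each of the 17250 gene names was represented by its most abundant row. Members, gene lists and the rule for named genes (all members, the 3 most abundant genes and a fixed set of each list, and the 8 genes nearest in pattern) were chosen with earlier results of these data known. Changes are log2 ratios of (RPKM + 0.1). A library with 3 reads or fewer gave no fold. Counts of genes changed at least 2-fold took in genes that reached 1 RPKM in at least 1 of the libraries compared. Intervals at 95% describe counting error alone. They take the reads as independent. Reads amplified by PCR and lacking molecular identifiers may not be so, and the intervals may then be too narrow. With 1 library per group no p-value was computed. The trend on length was removed by lowess with a span of 0.3. GC content of the longest GENCODE M21 transcript was found for 99.2% of 11144 genes and for 6 of the 9 members, so a GC check of all members is void. It was applied to the alpha rows and to Beta-s, and the summed beta change was corrected as a whole with the GC content of Beta-s, since Hbb-b1 and Hbb-b2 had no value. The alternatives were TMM (edgeR 4.0.16) and median-of-ratios (DESeq2 1.42.0) scaling, a library total without the members, removal of the length trend, pseudocounts of 1 and 0.01, summed reads, and other thresholds. GC removal and the use of beta rows matched by symbol were added after seeing the data. A few genes that the rule names are not reported here. The steps were tested on simulated data. Python 3.11.15, pandas 2.3.3, numpy 2.4.6, scipy 1.17.1, statsmodels 0.14.6 and R 4.3.3 were used.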

Additional observations from a re-analysis of the deposited data

How the results depend on the processing

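No paired analysis was possible because each time point has 1 library, and for the same reason no replicate could be left out. Of 105 values recomputed under alternatives, 48 stayed within the counting interval or within 1.5 times the count, 53 moved beyond it and 4 changed sign. The sign changed with the length trend removed, and with the length and GC trends removed, which gave 0.077 and 0.057 for the alpha change and 0.40 and 0.40 for the beta change at 3 against 0 days, where beta takes the GC content of Beta-s for all 3 rows. The cause was not tested. All other changes of alpha, beta and Ahsp kept their sign under the alternatives run. In the order 3 against 0, 5 against 0 and 5 against 3 days, the alpha change was -0.58, -2.33 and -1.75 with TMM, -0.58, -2.32 and -1.74 with median-of-ratios scaling, and -0.55, -2.29 and -1.78 with the GC trend removed. The beta change was -0.23, -1.81 and -1.59 with TMM, -0.22, -1.80 and -1.58 with median-of-ratios scaling, -0.22, -1.81 and -1.62 with the GC trend removed, and -0.29, -1.69 and -1.40 over the beta rows matched by symbol. The Ahsp change was -0.84, -1.49 and -0.64 with TMM and -0.84, -1.47 and -0.64 with median-of-ratios scaling. With the length trend removed, alpha was -1.45 and -1.58, beta -0.99 and -1.44 at 5 against 0 and 5 against 3 days, and Ahsp -0.14 and -0.51 at 3 and 5 against 0 days. With length and GC trends removed, alpha was -1.49 and -1.60 and beta -1.01 and -1.45 at 5 against 0 and 5 against 3 days. Neither the other pseudocounts nor a total without the members moved a change beyond its counting interval. The alpha to beta ratio from summed reads was 0.370, 0.289 and 0.258 at 0, 3 and 5 days, and over the beta rows matched by symbol 2.09, 1.81 and 1.66. At 1.5-fold 1 member (Ahsp) was lower at 3 days. At 4-fold 2 members (Hba-a2 and Hbb-b2) were lower at 5 against 0 days and 0 at 5 against 3 days. Of the erythroid genes, 0 were 2-fold higher at 3 days with the length trend removed. At 5 against 0 days 4 were lower with TMM and 2 with the length trend removed, and 1 and 0 were higher. At 5 against 3 days 4 and 5 were lower. With the length trend removed, the shares of all genes were 7.61% lower and 5.05% higher at 5 against 0 days, and 4.93% lower at 5 against 3 days.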
